A study of Macaca mulatta with 16 samples.

Results

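The sites described here are the CpG sites nearest to the chromosome ends of the rhesus monkey. A site was taken as a chromosome-end site when it lay on chromosomes 1 to 20 within 2 Mb of the first or the last SmaI site that the files list for its chromosome, and when at least 100 reads covered it in at least 10 of the 13 libraries from monkeys fed ad libitum. This rule used position and coverage only, and it found 4016 sites among 24288 autosomal sites with the same coverage. The remaining 20272 sites are called other sites. All 40 chromosome ends held at least 5 of the sites, with a median of 76.5 per end. The ends are those of the rheMac2 assembly, which may stop short of the telomere itself.

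Subtelomeric DNA is the stretch just inside the telomere repeats. In primates it is often GC-rich, gene-rich and dense in CpG dinucleotides, and much of it carries methylated CpG even where CpG is dense. The DNA methyltransferase DNMT3B is needed for subtelomeric methylation, which is low in those patients with ICF syndrome in whom this enzyme is impaired. In whole blood the level at a site is an average over all white cell types, so that a change within cells and a shift in the mixture of cells cannot be told apart. Markers of blood cell types could not be checked, because the files hold no genes.

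Methylation was measured by DREAM, in which SmaI cuts unmethylated CCCGGG sites and XmaI then cuts the methylated ones, leaving different ends on the fragments that are counted by sequencing. Whole blood DNA of 16 rhesus monkeys is described here, with 1 library per monkey. Other monkeys of the study were not analysed here, so the groups can be smaller than the study's. AL-infant monkeys were fed ad libitum and were 0.8 to 0.9 years old (2 females and 2 males). AL-middle monkeys, also ad libitum, were 10.4 to 12.1 years old (1 female and 4 males), and AL-old monkeys, also ad libitum, 21.9 to 29.8 years old (1 female and 3 males). CR-old monkeys were under caloric restriction and 23.7 to 25.1 years old, and all 3 were female, so that diet and sex overlap in the comparison of the old groups. Single monkeys are named by group and the study's animal number. No genotype is given in the labels.

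Libraries held 8067560 to 126804562 reads at listed sites, and the median chromosome-end site was covered by 200.5 to 3613 reads per library. The authors corrected the percent methylation with 1 constant per library, and the group means of these constants were 0.631 (CR-old), 0.595 (AL-middle), 0.433 (AL-infant) and 0.340 (AL-old). A spiked-in standard, Luc306, read 27.3 to 32.0% uncorrected in the 5 AL-middle libraries, 27.6% in CR-old 1 and 30.4% in CR-old 28, but 41.4 to 68.2% in the other 9 libraries, which include all AL-infant and AL-old libraries and CR-old 4. AL-middle therefore cannot be told apart from its set of libraries, and in the comparison of diets only CR-old 4 stood in the same set as AL-old. The sets are drawn on this reading alone, since no label gives a batch. CR-old 4 was not matched to AL-old by it. It read 42.6%, below the AL-old libraries (50.1 to 68.2%), and its constant of 0.494 lay above theirs (0.250 to 0.424). Corrected percentages are used throughout, with uncorrected values beside those results that depend on them. The correction multiplies the odds of methylation at every site of a library by the same constant.

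Chromosome ends were rich in covered sites. The 40 windows made up 2.95% of the span of the autosomes but held 7.55% of the 362007 listed SmaI sites and 16.5% of the covered sites. SmaI sites were listed at 341.6 per Mb at the ends and at 127 per Mb elsewhere, and covered sites stood at 50.2 against 7.71 per Mb. Of the listed sites, 14.7% were covered at the ends and 6.06% elsewhere. Once covered, the sites differed less: 70.4% of chromosome-end sites and 75.1% of other sites had another SmaI site within 200 bp. On average there were 2.92 and 2.61 further SmaI sites within 1 kb. At like AL-infant levels the ends were denser, with 2.46 against 1.85 such sites at 65 to 90% methylation and 2.57 against 1.91 over 90%. The median depth was similar, at 25.4 and 24.2 reads per 1000000 reads of the library. Of the 4016 sites, 2554 (63.6%) had another covered site within 200 bp, and joining sites less than 1 kb apart left 1842 clusters. Neighbouring sites share their DNA and are not independent of each other.

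Methylation was higher at the chromosome ends than elsewhere in every monkey. In AL-infant the mean level at chromosome-end sites was 57.2% ± 0.467 (SD, n = 4), and at other sites it was 38.4% ± 0.423. The values of the 4 infants ran from 56.7 to 57.8% at the ends and from 38.1 to 39.1% elsewhere, with no overlap. In AL-middle the levels were 55.7% ± 0.985 (SD, n = 5) and 36.9% ± 0.743. AL-old monkeys had the lowest levels of the 4 groups, with 50.2% ± 2.11 (SD, n = 4) at the ends and 33.4% ± 1.84 elsewhere. CR-old monkeys stood at 56.6% ± 1.32 (SD, n = 3) and 37.9% ± 1.01. At the ends the AL-old monkeys read 49.9% (AL-old 2), 52.5% (AL-old 7), 50.8% (AL-old 24) and 47.5% (AL-old 33), and the CR-old monkeys 57.5% (CR-old 1), 55.1% (CR-old 4) and 57.1% (CR-old 28). The AL-old range thus lay below that of each other group, whereas the ranges of AL-infant, AL-middle and CR-old overlapped. AL-old 24 had a value at 89.5% of the chromosome-end sites only, AL-middle 42 at 85.9%, AL-middle 40 at 86.6% and AL-middle 46 at 91.2%. The means of these monkeys thus cover fewer sites. Without the correction the levels at the ends were 63.1% in AL-infant, 60.6% in AL-middle, 61.9% in AL-old and 60.8% in CR-old, and the order of the groups differed. The gap between chromosome-end sites and other sites was 16.2 to 19.7 percentage points across the 16 monkeys.

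**Figure D1:**
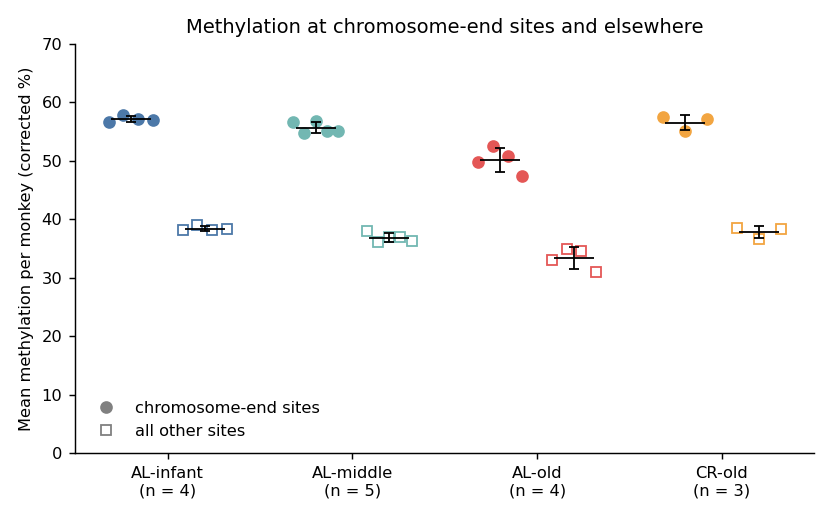
Mean corrected methylation per monkey (y axis, percent) at chromosome-end sites (filled circles) and all other covered autosomal sites (open squares) in the 4 groups, with the group mean (long bar) and SD (error bar). Every monkey lies higher at the ends, and the 4 AL-old monkeys, at 47.5 to 52.5%, lie below the other groups at the ends.

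The ends differed from the rest of the genome in the make-up of their sites, and few sites in either had intermediate levels. In AL-infant 1065 chromosome-end sites (26.5%) were methylated under 5%, against 49.7% of other sites. A level of 65 to 90% was held by 1026 chromosome-end sites (25.5%), against 16.4% elsewhere, and a level over 90% by 1314 sites (32.7%), against 22.1%. The 298 sites at 5 to 35% (7.42%) and the 313 sites at 35 to 65% (7.79%) were also somewhat more frequent than elsewhere, where these classes held 6.01 and 5.83%. The share under 5% differed little among the 4 infants, from 26.8 to 26.9% at the ends and from 49.7 to 50.2% elsewhere. The median level of chromosome-end sites per library therefore stood far above that of other sites, for example at 79.1% against 5.67% in AL-infant 52.

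**Figure D2:**
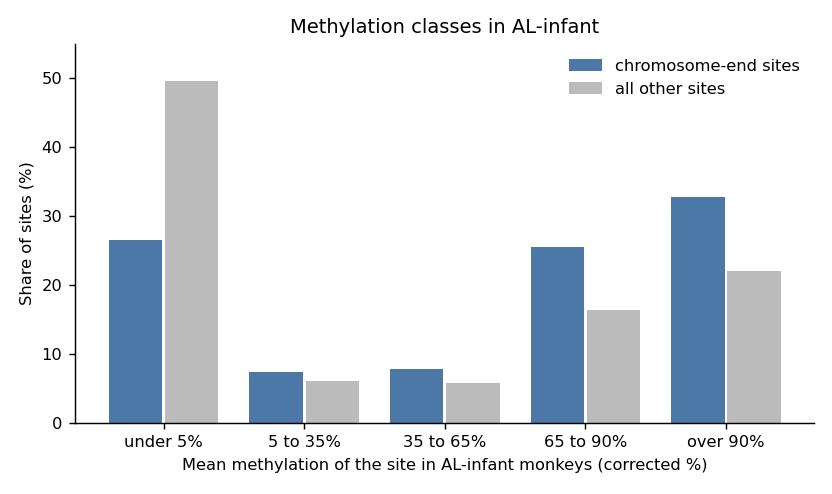
Share of chromosome-end sites (blue) and of all other covered sites (grey) in 5 classes of mean AL-infant methylation (x axis, corrected percent; y axis, percent of sites). The class under 5% holds 26.5% of chromosome-end sites and 49.7% of the others, and the classes of 65 to 90% and over 90% hold more of the chromosome-end sites.

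Clusters of SmaI sites stand here for CpG-dense DNA, since CpG density itself was not measured. Elsewhere in the genome, 68.4% of sites with 3 to 5 further SmaI sites within 1 kb were under 5% in AL-infant. With 6 to 10 the share was 87.8%, but with 11 or more it was 37.7%. At the ends the shares for 3 to 5 and 6 to 10 were lower, at 33.8 and 63.9%. Among sites with 3 to 5 further SmaI sites within 1 kb, the mean AL-infant level was 51.0% at 1562 chromosome-end sites and 22.8% at 7037 other sites. With 6 to 10 such neighbours it was 25.5% at 357 chromosome-end sites and 7.75% at 1333 others. With 1 or 2 neighbours the levels were 67.1 and 51.0%. The 51 chromosome-end sites with no neighbour within 1 kb came closest to the rest of the genome, with 65.6% against 62.9%. The 28 chromosome-end sites with 11 or more neighbours were at 72.5%, against 48.4% at 61 other sites. In each of these classes the ends were thus the more methylated, and the gap was widest, at 28.3 percentage points, among sites of 3 to 5 neighbours.

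The level did not fall off sharply at 2 Mb. Sites within 0.5 Mb of the end averaged 54.7% in AL-infant, those at 0.5 to 1 Mb 60.6%, those at 1 to 1.5 Mb 56.1% and those at 1.5 to 2 Mb 56.6%. Sites at 2 to 5 Mb were still at 54.8%, whereas those at 5 to 10 Mb were at 45.7% and those beyond 10 Mb at 32.7%. The high level was thus shared by the adjoining DNA to about 5 Mb. Single cases, more methylated in AL-infant than these means, are the sites nearest to the limit. Just inside it, at 1997669 and 1997484 bp from the first site of chromosome 14, SmaI_rheMac2_256678 (position 2001217) had 94.2% ± 1.51 in AL-infant and 76.2% ± 7.66 in AL-old, and SmaI_rheMac2_256677 (position 2001032) had 94.7% ± 1.07 and 67.8% ± 6.65. Just outside it, at 2000594 and 2000845 bp from the last site of chromosome 16, SmaI_rheMac2_308262 (position 76763384) had 85.5% ± 2.48 and 60.9% ± 10.5, and SmaI_rheMac2_308261 (position 76763133) had 89.5% ± 2.63 and 62.1% ± 5.93 (SD, n = 4 in each).

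Most ends stood above the interior of their own chromosome. In AL-infant 35 of the 40 ends exceeded the mean of the covered sites in the interior of the same chromosome, and with both ends joined all 20 chromosomes did, by 5.65 points on chromosome 19 to 35.9 points on chromosome 18. The ends with the most sites were the first of chromosome 19 (313 sites, 57.2%), the first of chromosome 20 (308 sites, 61.4%) and the last of chromosome 20 (219 sites, 63.8%). Among the 36 ends with at least 20 sites the level was highest at the last end of chromosome 18, with 77.0% over 110 sites against 35.5% in the interior. The 5 exceptions were the last ends of chromosomes 1, 15 and 19 and the first ends of chromosomes 11 and 17. The last end of chromosome 15 was the lowest, since 79.2% of its 24 sites were under 5% and its mean was 16.8%, against 45.2% in the interior.

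The comparison of AL-old with AL-infant asks how methylation at the chromosome ends moved with age. Averaged over the 4016 sites, methylation in AL-old was lower than in AL-infant by 7.55 percentage points (-7.55 ± 2.34, SD over the 4 old monkeys). All 4 old monkeys lay below the infant mean, by -7.25 (AL-old 2), -4.49 (AL-old 7), -9.09 (AL-old 24) and -9.70 (AL-old 33). Without the correction the fall was much smaller, at -1.96 ± 2.14 points, and AL-old 7 lay 0.330 points above the infant mean. Other sites fell less on average, with a mean of -5.62 ± 1.84, but they also started lower. The other sites were therefore sorted into 13 classes of AL-infant level and 4 of coverage, and each class was weighted by the number of chromosome-end sites in it. So weighted, their AL-infant mean was 57.3%, the same as that of the chromosome-end sites to 3 digits, and their change was -9.01 ± 2.80. Chromosome-end sites thus lost 1.46 percentage points less than other sites of the same level and coverage (± 0.614, SD over the 4 old monkeys). The difference was 1.60 in AL-old 2, 0.894 in AL-old 7, 1.13 in AL-old 24 and 2.29 in AL-old 33, above 0 in 4 of 4 monkeys, which share the same infant baseline. It was 0.985 ± 0.524 without the correction, where it was also above 0 in 4 of 4. Without weighting it had the other sign, at -1.92 points. No test was run on these means, because sites are not replicates. The weighting did not match the number of SmaI sites within 1 kb, and the part of that number in the difference was not tested.

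The smaller loss lay in the methylated classes. Sites under 5% in AL-infant gained 1.36 points at the ends and 1.34 elsewhere, and the difference (0.0143 ± 0.0933) was within the spread of the monkeys. At 5 to 35% the gains were 1.78 and 0.981, and the difference of 0.802 ± 1.08 was above 0 in 2 of 4 monkeys. Sites of 35 to 65% changed by -8.46 points at the ends and -11.2 elsewhere. Those of 65 to 90% changed by -16.95 and -19.6, and those over 90% by -9.31 and -10.8. In each of these 3 classes the fall was smaller at the ends in 4 of 4 old monkeys, by 2.77 ± 0.631, 2.69 ± 1.19 and 1.52 ± 0.855 points. The size of the changes depended on the correction. At the same sites, the uncorrected means at the ends went from 1.12% in AL-infant to 4.80% in AL-old under 5%, from 31.1 to 38.5% at 5 to 35%, from 70.6 to 67.5% at 35 to 65%, from 90.4 to 82.7% at 65 to 90% and from 97.99 to 94.4% over 90%. With the classes drawn on uncorrected levels, which puts other sites into each class, the sites of 35 to 65% rose, by 2.72 points at the ends and 0.619 elsewhere. The difference between the ends and the other sites stayed above 0 in 4 of 4 monkeys in the 3 upper classes drawn in this way, at 2.10 ± 1.32, 2.22 ± 0.900 and 1.08 ± 0.661 points. The mean SD per site among the AL-old monkeys was smaller at the ends than at the weighted other sites over 90% (5.55 against 6.25 points) and at 65 to 90% (8.50 against 8.85). It was larger under 5% (1.01 against 0.911), at 5 to 35% (6.19 against 5.78) and at 35 to 65% (8.82 against 8.31).

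The difference in loss was found next to the end and not at the inner margin of the window. Compared with weighted sites beyond 10 Mb, the change with age was higher by 2.16 ± 0.948 points within 0.5 Mb of the end, by 1.89 ± 0.627 at 0.5 to 1 Mb and by 1.69 ± 0.909 at 1 to 1.5 Mb. At 1.5 to 2 Mb it was higher by 0.340 ± 0.349 only, at 2 to 5 Mb by 0.0911 ± 0.229 and at 5 to 10 Mb by 0.165 ± 0.183 (SD over the 4 old monkeys). In AL-old 33, the monkey with the largest values, they were 3.54, 2.70, 2.80 and 0.845 in the 4 classes of the window, and in AL-old 7 they were 1.29, 1.28, 0.818 and 0.116. The level itself, in contrast, was almost as high at 2 to 5 Mb as within the window. Without the correction the first 3 classes stood at 1.38, 1.30 and 1.02 points and the class of 1.5 to 2 Mb at 0.224.

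**Figure D3:**
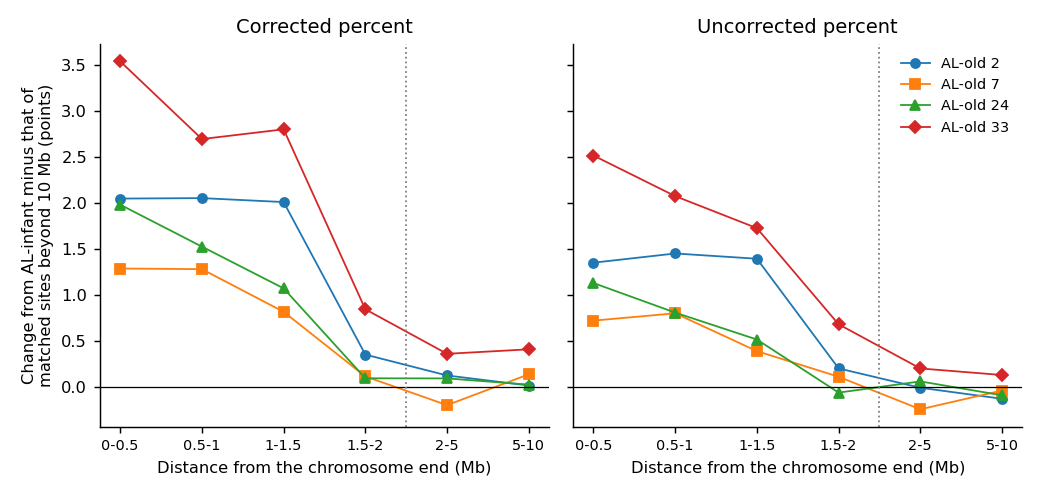
Change in methylation of each AL-old monkey from the AL-infant mean, minus the change of sites beyond 10 Mb weighted to the same level and coverage (y axis, percentage points), by distance from the chromosome end (x axis, Mb), on the corrected and uncorrected scales. The dotted line marks the 2 Mb limit. All 4 monkeys lie above 0 within 1.5 Mb and near 0 beyond 2 Mb.

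The ends were not alike. Compared with weighted other sites, 25 of the 36 ends with at least 20 sites had the smaller loss. In 16 of the 36 all 4 old monkeys lay above the weighted other sites, and in 4 all lay below. The largest positive differences were at the last ends of chromosomes 18 (4.89 points, from 4.49 to 5.56 among the monkeys) and 11 (4.49) and at the first end of chromosome 19 (4.26, from 2.33 to 6.48). The first end of chromosome 13 (56 sites) stood apart in the opposite direction: it lost 15.3 points, 4.64 more than weighted other sites, with all 4 monkeys between -6.62 and -2.49. The ends with all 4 monkeys below 0 were this one, the last of chromosome 14, the first of chromosome 11 and the last of chromosome 9. The first and last ends of chromosome 20 had differences of 2.49 and 1.64. Leaving out the 3 ends with the most sites, the difference over the remaining 3176 sites was 1.08 points. Set against the weighted interior of the same chromosome, the loss was smaller at the ends on 19 of 20 chromosomes, all but chromosome 13, with a median difference of 1.22 points. On chromosome 13 the difference was -1.16 points. Without the correction the loss was smaller at the ends on 16 of 20. Chromosome 13 then no longer stood apart, at -0.162 points beside -0.193 on chromosome 6 and -0.233 on chromosome 14. Single ends are given on the corrected scale only.

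**Figure D4:**
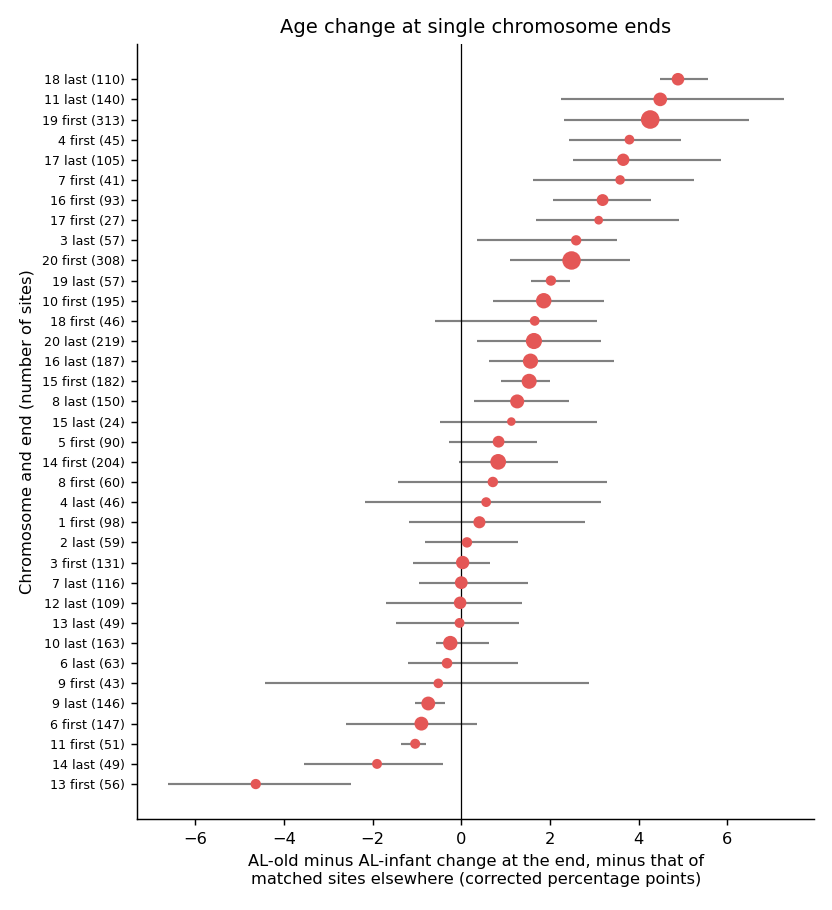
Difference between the AL-old minus AL-infant change at each chromosome end with at least 20 sites and that of weighted other sites (x axis, corrected percentage points). Points, sized by the number of sites given in parentheses, show the mean and lines the range over the 4 AL-old monkeys; 25 of 36 ends lie above 0 and the first end of chromosome 13 lies lowest.

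Tested site by site across all autosomal sites (quasi-binomial logistic test on methylated and unmethylated reads, Benjamini-Hochberg adjusted p under 0.05), 476 of 3960 tested chromosome-end sites (12.02%) gained methylation from AL-infant to AL-old, against a background of 19.8% of all sites tested. Losses were called at 576 (14.5%), against a background of 11.9%. Both shares follow the make-up of the sites. Other sites weighted to the same level and coverage were called in 13.2% for gains and 16.9% for losses, so that the shares at the ends were below both. By class, gains were called at 387 of 1058 chromosome-end sites under 5% (36.6%, background 38.4%). Losses were called at 31 of 306 sites of 35 to 65% (10.1%, background 14.2%), at 251 of 1010 sites of 65 to 90% (24.9%, background 28.4%) and at 281 of 1296 sites over 90% (21.7%, background 23.2%). With the logarithm of each library's correction constant added to the model as an offset, 366 sites gained (9.24%, background 16.4%) and 1138 lost (28.7%, background 22.4%), so the split between gains and losses depends on the correction. The call counts also moved when single monkeys were left out, and without AL-old 7 there were 427 gains and 1261 losses. Without any 1 of the 4 infants there were 296 to 317 gains and 311 to 328 losses.

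Sites called as gained averaged 6.27% in AL-infant, 9.81% in AL-middle, 10.8% in AL-old and 10.7% in CR-old, and their median change was 2.68 points. Those called as lost averaged 85.0, 78.2, 64.1 and 78.9% in the same order, and their median change was -20.8 points. These averages over called sites describe the sites that the test selected and are not further support for it. Most of the called gains were thus a few points at almost unmethylated sites, and the called losses were larger.

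Single sites show the size of the changes. The files pair sites with positions and not with genes, and no annotation of this assembly was used here, so sites are given by identifier and position in rheMac2. Among the called sites, 801 of 1052 had at least 100 reads in every AL-infant and AL-old monkey, no overlap between these groups and the same direction with and without the correction. Of these, the sites with the largest rises and falls are given, 1 per 10000 bp.

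Large rises were few and began from different levels. SmaI_rheMac2_328356 (chromosome 19, position 1384281) read 43.7, 48.8, 45.4 and 48.1% in the 4 infants and 82.3, 75.9, 72.5 and 61.9% in the AL-old monkeys, a rise of 26.7 points (adjusted p = 0.00281). The 3 AL-middle monkeys with enough reads stood at 74.5 to 78.8% and the CR-old monkeys at 80.6 to 84.9%, so that all adult groups lay above the infants. SmaI_rheMac2_290586 (chromosome 16, position 1852852) was nearly unmethylated in the infants, with 1.87, 2.29, 2.73 and 1.16%. In AL-old it read 36.9, 13.6, 21.4 and 37.4%, a rise of 25.3 points (adjusted p = 0.00628). AL-middle monkeys, at 9.12 to 14.8%, and CR-old monkeys, at 12 to 17%, lay above the infants and overlapped the AL-old range at its lower end. A like order was seen at SmaI_rheMac2_319116 (chromosome 18, position 1784322), where the infants read 5.43, 1.82, 0.73 and 2.14% and the AL-old monkeys 31.7, 32.7, 20.3 and 17.3% (23.0 points higher, adjusted p = 0.002). There the CR-old monkeys, at 16.4 to 41.98%, did not lie below AL-old.

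SmaI_rheMac2_256531 (chromosome 14, position 1750380) rose by 26.3 points, from 7.19, 19.4, 8.15 and 14.5% to 50.8, 23.8, 25.1 and 54.8% (adjusted p = 0.0228). The call was lost, with an adjusted p of 0.0551, when the correction constants entered the model. SmaI_rheMac2_327809 (chromosome 19, position 684135) rose by 24.01 points to between 67.0 and 75.9% in AL-old. SmaI_rheMac2_361526 (chromosome 20, position 87258435) went from 65.6 to 75.6% in the infants to 92.4 to 94.9% in AL-old, and the CR-old monkeys were equally high at 92.3 to 98.0%. The remaining rises were 21.6 points at SmaI_rheMac2_238126 (chromosome 12, position 104592545) and 20.96 points at SmaI_rheMac2_327361 (chromosome 19, position 150485). At the 3 of these 8 sites on the first end of chromosome 19 the AL-middle means (77.2, 73.0 and 46.5%, in the order given) were close to those of AL-old (73.2, 69.6 and 49.3%).

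On the corrected scale the largest falls exceeded the largest rises. Without the correction the same 8 rises were 13.1 to 46.9 points and the same 8 falls were -31.2 to -21.8, so that their sizes overlapped. The sites were chosen on the corrected scale and need not be the largest changes without it. The largest corrected fall was at SmaI_rheMac2_155127 (chromosome 8, position 1915847). It read 83.3, 87.5, 82.7 and 93.1% in the infants and 31.1, 49.5, 38.9 and 29.7% in AL-old, a fall of 49.4 points (-49.4, adjusted p = 0.00283). Its reads were few, from 44 to 462 per library, and 2 CR-old monkeys with enough reads stood at 69.3 and 78.1%. SmaI_rheMac2_187495 (chromosome 9, position 131918710) read 86.6, 88.0, 76.2 and 82.6% in the infants and 33.2, 43.7, 45.8 and 20.9% in AL-old (-47.5, adjusted p = 0.0196). CR-old monkeys were widely spread there, at 77.2, 88.7 and 58.3%, and all 3 were above the AL-old range. At SmaI_rheMac2_54212 (chromosome 3, position 651486) the infants read 77.5, 83.2, 76.2 and 77.2% and the AL-old monkeys 33.2, 42.8, 33 and 31.6% (-43.4, adjusted p = 0.00494). AL-middle monkeys, at 47.8 to 57%, and CR-old monkeys, at 50.8 to 56.7%, lay between the infants and AL-old.

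SmaI_rheMac2_238937 (chromosome 13, position 913145) belongs to the end with the greatest corrected loss and had no other SmaI site within 1 kb. It read 85.7, 70.9, 79.5 and 76.3% in the infants, 49.3 to 65.5% in AL-middle and 28.4, 42.9, 37.1 and 36.8% in AL-old (-41.8, adjusted p = 0.00589). CR-old monkeys read 68.9, 48.7 and 71.5%. The remaining 4 sites fell by 40.7 to 41.0 points: SmaI_rheMac2_327958 (chromosome 19, position 882522), SmaI_rheMac2_54504 (chromosome 3, position 1309527), SmaI_rheMac2_34307 (chromosome 1, position 226657250) and SmaI_rheMac2_112958 (chromosome 6, position 945423). These 8 sites were chosen for low AL-old values, so that a comparison of other groups with the same AL-old monkeys is a description only. Of the 6 that could be tested between the diets none was called in the model without the correction constants. With these constants as an offset in that model all 6 were called, at adjusted p of 0.00764 to 0.029. Their corrected means were higher in CR-old than in AL-old. These calls carry the same limit, since the sites were chosen for low AL-old values.

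**Figure D5:**
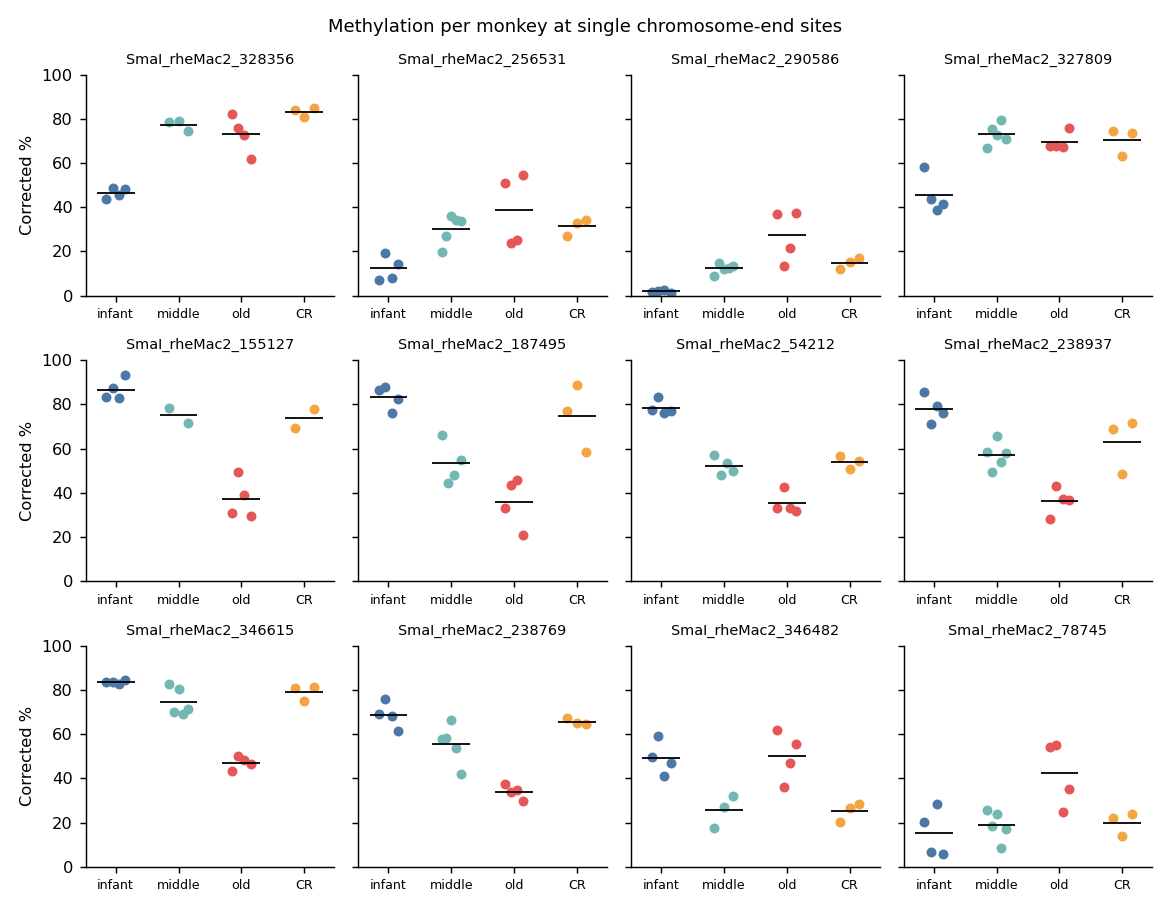
Corrected methylation (y axis, percent) of single monkeys (points) and group means (bars) at 12 chromosome-end sites: the 4 largest rises with age (top row), the 4 largest falls (middle row), and the 2 largest rises and 2 largest falls from AL-old to CR-old (bottom row). Monkeys with under 100 reads at a site are left out; the falls with age end at 20.9 to 49.5% in AL-old.

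The comparison of CR-old with AL-old asks whether methylation at the chromosome ends differed with diet at old age. On the corrected scale CR-old exceeded AL-old by 7.08 ± 1.34 points at the ends (SD over the 3 CR-old monkeys) and by 7.72 ± 1.44 at other sites weighted to the same infant level and coverage. The difference of -0.638 ± 0.108 was below 0 in 3 of 3 monkeys, with -0.699 in CR-old 1, -0.508 in CR-old 4 and -0.691 in CR-old 28, which share the same AL-old baseline. Without AL-old 33 it was -0.377. The weighting matched the AL-infant level and not the AL-old level. In the comparison with age, the change of the same AL-old monkeys was 1.46 points higher at the ends than at the weighted other sites. Higher AL-old values at the ends raise that age difference and lower the diet difference. The diet difference is therefore not a result separate from the age difference, and a part of diet in it was not tested. Sites of 5 to 35% in AL-infant were higher in CR-old by 5.76 points at the ends and 5.06 elsewhere. Their difference of 0.699 ± 0.725 was within the spread of the monkeys and above 0 in 2 of 3. Without the correction, sites of 35 to 65% uncorrected went the other way, at 0.834 ± 0.369 above the weighted other sites in 3 of 3 monkeys. CR-old 4, whose Luc306 reading was the nearest of the 3 to AL-old but still below it, was 5.55 points above AL-old at the ends. At the weighted other sites it was 6.06 points above. The rise was greatest at sites of 65 to 90% in AL-infant, with 13.7 points at the ends and 15.1 elsewhere, and was nearly absent under 5%, with -0.143 and -0.122. Without the correction the difference between the diets at the ends was -0.217 ± 0.828 points, with both signs among the monkeys (-1.18, 0.297 and 0.217). The higher mean level of CR-old at the chromosome ends was thus not seen without the correction constants, which themselves differed between the groups, and the 2 cannot be told apart. The difference between the ends and the weighted other sites was -0.336 ± 0.0348 without the correction, also below 0 in 3 of 3 monkeys. It shares the AL-old values with the age difference as well.

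Calls between the diets were few, and their direction depended on the correction. The test pools the reads of a group, so deeper libraries weigh more in it than in the means over monkeys. CR-old 1 and CR-old 28 held 121004338 and 126804562 reads at listed sites, and CR-old 4 held 18042448. Among the AL-old libraries AL-old 7 was the deepest, with 56837858. Of 3854 tested chromosome-end sites, 14 gained methylation in CR-old (0.363%, background 0.259%) and 101 lost (2.62%, background 3.13%). Weighted other sites were called in 0.369% for gains and 2.87% for losses. With the correction constants as an offset 817 gained (21.2%, background 16%) and 19 lost (0.49%, background 0.659%), against 21.9 and 0.577% of the weighted other sites. At an unadjusted p under 0.05 there were 196 gains and 580 losses. None was called by limma on log2 odds, and none when AL-old 24 was left out, whereas leaving out AL-old 7 gave 100 gains and 76 losses.

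Of the 115 called sites, 32 met the rule for naming (13 rises and 19 falls). The 5 largest rises were all at sites methylated in the infants and lower in AL-old. SmaI_rheMac2_346615 (chromosome 20, position 755612) read 43.3, 50.2, 48.4 and 46.6% in AL-old and 80.8, 75.2 and 81.4% in CR-old, a rise of 32.0 points (adjusted p = 0.0413), while the infants were at 82.5 to 84.5%. SmaI_rheMac2_238769 (chromosome 12, position 106357981) read 37.6, 33.7, 34.5 and 29.8% in AL-old and 67.2, 64.96 and 64.4% in CR-old (31.6 points, adjusted p = 0.0257). At SmaI_rheMac2_346929 (chromosome 20, position 1110990) the AL-old monkeys read 47.9, 46.8, 41.7 and 47.7% and the CR-old monkeys 76.4, 77.0 and 77.6% (31.0 points, adjusted p = 0.044). All 3 CR-old values lay within the infant range of 73.3 to 78.4%. SmaI_rheMac2_256190 (chromosome 14, position 966370) and SmaI_rheMac2_238170 (chromosome 12, position 104682969) rose by 31.1 and 29.2 points. All 5 were also called, as losses, between AL-infant and AL-old, and without the correction their differences between the diets were 11.6 to 14.9 points. These sites were chosen for low values in the same AL-old monkeys, so their loss with age and their likeness to the infants are a description only.

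The 5 largest falls were more varied. SmaI_rheMac2_346482 (chromosome 20, position 578907) read 62.0, 36.1, 47.1 and 55.6% in AL-old and 20.5, 26.6 and 28.2% in CR-old (-25.1, adjusted p = 0.0362). The infants, at 41.1 to 59.1%, were like AL-old, and the 3 AL-middle monkeys with enough reads, at 17.6 to 32.1%, like CR-old. The same order was seen at SmaI_rheMac2_274306 (chromosome 15, position 1772508), where AL-old read 60.3, 44.3, 54.6 and 62.8% and CR-old 30.0, 41.7 and 34.3% (-20.2, adjusted p = 0.0315). There 2 AL-middle monkeys with enough reads stood at 29.4 and 37.2%. AL-middle, CR-old 1 and CR-old 28 belong to the same set of libraries, and the part of that set in this order was not tested. CR-old 4, of the other set, read 26.6% at the first site and 41.7% at the second, where it stood closer to AL-old 7 (44.3%) than to the other CR-old monkeys. SmaI_rheMac2_78745 (chromosome 3, position 195623886) read 54.3, 55.02, 24.95 and 35.2% in AL-old against 21.9, 14.2 and 23.99% in CR-old (-22.4, adjusted p = 0.0233). It had also risen with age, but it was chosen for high values in the same AL-old monkeys. SmaI_rheMac2_227285 (chromosome 11, position 133844364) fell by 13.2 points and SmaI_rheMac2_97099 (chromosome 4, position 167026613) by 9.92. Leaving out 1 monkey lost the call in at least 1 case for each of the 10 sites named in this comparison.

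AL-middle was compared with AL-infant in the same way. The mean change at the ends was -1.51 ± 1.39 points (SD, n = 5), from -2.76 (AL-middle 46) to 0.283 (AL-middle 42), and at the weighted other sites -2.20 ± 1.49. Without the correction the change at the ends was -2.63 ± 0.629, and all 5 monkeys lay below the infant mean, by -3.52 to -1.88. The difference of 0.684 ± 0.0990 was above 0 in 5 of 5 monkeys, and it was 0.548 ± 0.0423 without the correction. It had the same direction as in AL-old. By distance it was 1.26 ± 0.295 points within 0.5 Mb and 0.427 ± 0.217 at 1.5 to 2 Mb, against weighted sites beyond 10 Mb. Outside the window it was 0.410 ± 0.0874 at 2 to 5 Mb, above 0 in 5 of 5 monkeys, and 0.202 ± 0.0901 at 5 to 10 Mb. Of 3795 tested sites, 292 gained (7.69%, background 12.7%) and 1407 lost (37.1%, background 29.8%). Weighted other sites were called in 7.90% for gains and 42.3% for losses, so that the share of losses at the ends was above the background but below that of sites of the same level and coverage. With the offset 452 gained (11.9%, background 18.9%) and 512 lost (13.5%, background 12.2%), against 12.8 and 17.7% of the weighted other sites. Of the sites called as gained in AL-old and tested here, 227 of 459 were called as gained in AL-middle too, and of those called as lost, 443 of 535. These comparisons share the infants.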

How the data were processed

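Whole blood DNA of 16 rhesus monkeys was analysed by DREAM with 1 library per monkey. Per the labels, DNA with spiked-in standards of 0, 25, 50 and 100% methylation was cut with SmaI and then XmaI, and fragments were size selected, amplified and sequenced. The authors aligned the reads to rheMac2 and counted methylated and unmethylated reads at each site. The deposited files hold these counts, a raw percent (checked here as methylated reads plus 0.5 over total reads plus 1), and an adjusted percent, which the authors made by multiplying the odds by 1 constant per library. Bowtie2 and SAMtools are named in the submitters' processing notes without versions.

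Sites were used at 100 reads or more. Each comparison was fitted across all covered autosomal sites with at least 3 monkeys per group by quasi-binomial logistic regression, with dispersions moderated by limma 3.58.1 in R 4.3.3 and two-sided F tests adjusted by Benjamini-Hochberg at 0.05. Within a group each monkey counted by its reads at the site, so that deeper libraries had more weight. Means and SDs over monkeys, with other sites weighted by 13 classes of AL-infant level and 4 of library-scaled reads, were computed in Python 3.11.15 with numpy 2.4.6 and pandas 2.3.3. The fits were run on simulated data without library-wide shifts, so that run did not cover correction constants that differ between libraries. Library depth was 8067560 to 126804562 reads, and reads carry no molecular identifiers, so depth covers counting error only.

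Alternatives were uncorrected percentages, coverage minima of 20 and 200, limma on log2 odds with 0.5 reads added, the correction constants as an offset, dispersion from all 4 groups, a change of at least 5 points, windows of 1 and 5 Mb, no weighting, weighting also by a SmaI neighbour within 200 bp, and leaving out each monkey. Named sites were the 8 largest rises and 8 largest falls with age and the 5 largest each way with diet, among called sites with at least 100 reads in every monkey of both groups, no overlap, and the same direction in counts and corrected percent, 1 per 10000 bp. The members, lists and rules were chosen with earlier results of these data known. Gene annotation was not used here.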

Additional observations from a re-analysis of the deposited data

Results flagged for a closer look

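Single values far from the rest of their group were looked for in 94 groups of 4 or 5 monkeys, over the levels and the named sites, with Dixon's criterion at the 95% level, and 4 were found, about as many as chance gives at 1 in 20 groups. At SmaI_rheMac2_327809 AL-old 33 read 75.9%, against 67.0 to 67.9% in the other 3 AL-old monkeys. At SmaI_rheMac2_54212 AL-old 7 read 42.8%, against 31.6 to 33.2% in the others. At SmaI_rheMac2_54504 AL-old 33 read 25.6%, against 35.7 to 37.7% in the others. At SmaI_rheMac2_256678, just inside the 2 Mb limit, AL-middle 40 read 88.6%, against 93.8 to 95.2% in the other 4 AL-middle monkeys. The first 3 values lie on the AL-old side of all AL-infant values at their sites, which the rule for naming those sites required.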

How the results depend on the processing

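Calls from AL-infant to AL-old at the ends (476 gains, 576 losses) became 304 gains with 200 reads required, 142 gains with a change of at least 5 points, 247 gains and 265 losses in a 1 Mb window and 945 and 1139 in a 5 Mb window. Losses rose to 963 at 20 reads, 924 with limma and 1138 with the offset. Leaving out 1 monkey gave 296 to 439 gains and 311 to 1261 losses. Calls from AL-old to CR-old (14 gains, 101 losses) became 7 and 52 at 200 reads, 0 and 0 with limma, 817 and 19 with the offset, 186 and 532 with dispersion from all 4 groups and 25 and 205 in a 5 Mb window. There were 28 losses with a change of at least 5 points and 53 in a 1 Mb window. Leaving out 1 monkey gave 0 to 100 gains and 0 to 111 losses. Calls from AL-infant to AL-middle (292 gains, 1407 losses) became 191 gains at 200 reads, 452 and 512 with the offset, 107 and 580 with dispersion from all 4 groups, 68 and 699 with a change of at least 5 points, 148 and 667 in a 1 Mb window and 570 and 2681 in a 5 Mb window.

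Mean levels at the ends were uncorrected 63.1% (AL-infant), 61.9% (AL-old), 60.8% (CR-old) and 60.6% (AL-middle), and at 200 reads 60.3, 54.1, 59.6 and 58.5%. At 20 reads AL-infant stood at 55.9% and AL-middle at 54.2%, in a 1 Mb window at 58.0 and 56.9%, and in a 5 Mb window at 56.1 and 54.4%, with CR-old at 55.2%. The AL-infant gap between ends and other sites (18.7 points) was 20.5 uncorrected, 17.03 at 20 reads, 20.1 at 200 reads, 17.97 in a 1 Mb window and 20.99 in a 5 Mb window. The share of end sites under 5% was 24.6% uncorrected, 27.9% at 20 reads, 23.3% at 200 reads, 26.6% at 1 Mb, 27.8% at 5 Mb and 26.3 to 26.6% without 1 infant. The share of 65 to 90% was 16.3% uncorrected, 26.9% at 200 reads and 24.4% at 1 Mb, and that over 90% 47.7, 34.7 and 34.995%.

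The age difference between ends and weighted other sites (1.46 points) was 0.797 in a 5 Mb window and reversed to -1.92 without weighting, where the other sites start from a lower level. It stayed above 0 in the other alternatives. The diet difference (-0.638) was -0.336 uncorrected, -0.451 at 20 reads, -0.809 at 1 Mb, -0.225 at 5 Mb, -0.508 with CR-old 4 alone, from -0.828 to -0.377 without 1 monkey, and reversed to 1.95 without weighting. The age and diet differences use the same AL-old monkeys with opposite signs and are not independent of each other. CR-old 4 alone and the 3 largest ends left out were chosen after seeing the data.

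All 16 sites named with age kept their call with limma, and 12 of 16 kept the call whichever monkey was left out. The 10 sites named with diet lost the call with limma. None of the 26 changed direction in the alternatives run. No paired analysis was possible because the groups share no animal numbers. Counts of calls moved with the coverage minimum as well as with the monkeys included and the correction constants; the part of sex was not tested.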
